A study of Mus musculus with 30 samples.

Results

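The transcriptome of hippocampus was compared between mice given selenium together with a low dose of methylmercury (MeHg), labelled Se_LD, and mice given the low dose alone, labelled LD. The members were taken from the treatment labels, which gave 5 Se_LD mice (libraries 5, 11, 17, 23 and 29) and 5 LD mice (libraries 2, 8, 14, 20 and 26), so 10 of the 30 libraries. All mice were male and of the inbred BALB/c strain. Per the study's methods, LD feed was spiked with 0.28 mg MeHg per kg, mice arrived at 2 to 3 weeks of age, and the diets were fed for 11 weeks, but those methods do not cover the selenium groups. The title of the series names selenium-methionine as the dietary selenium, and its dose is not given in the sources used here. By the study's methods, MeHg was given with cysteine, and control feed received cysteine too. Each group of the factorial design held 5 mice. Without MeHg there were controls without selenium (Ctr) and selenium alone (Se_Ctr). The low dose was given alone (LD) or with selenium (Se_LD). The high dose, 5 mg MeHg per kg feed, was given alone (HD) or with selenium (Se_HD). MeHg was thus shared by LD and Se_LD, and selenium was what separated them.

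Selenium enters proteins as selenocysteine, an amino acid that is read from the codon UGA, which otherwise ends translation. Reading it takes a dedicated transfer RNA, an elongation factor and a hairpin in the messenger RNA, and the transcripts of some selenoproteins are degraded when selenium is short. Brain takes up selenium mainly as selenoprotein P and holds on to it when other organs lose theirs. MeHg binds thiols and, more strongly, selenols, so glutathione peroxidases and thioredoxin reductases, whose active sites carry selenocysteine, are known as its targets. The question of the comparison was whether hippocampal transcripts differed with selenium when MeHg was given at the low dose.

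The codon in question is shown for the 6 selenoprotein transcripts that the values turn on, since it marks where selenium enters each product. Sequences were read 5′ to 3′ on the coding strand from the transcripts of the NCBIM37 mouse annotation. The 12 bases before the codon and up to 12 after it are in lower case, and the selenocysteine codon is in capitals.
Gpx1: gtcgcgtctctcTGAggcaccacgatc
Gpx4: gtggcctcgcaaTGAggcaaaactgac
Txnrd1: cagtctggctgcTGAggttaa
Txnrd3: cagaaaggctgcTGAggctag
Dio3: ggcagctgtaccTGAccaccgttcatg
Sepw1: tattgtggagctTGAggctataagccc
In the glutathione peroxidases Gpx1 (chr9:108241782-108241784, + strand, exon 1 of 2) and Gpx4 (chr10:79517482-79517484, + strand, exon 3 of 7) the codon was number 47 and 129. In the thioredoxin reductases Txnrd1 (chr10:82358782-82358784, + strand, exon 15 of 15) and Txnrd3 (chr6:89624783-89624785, + strand, exon 16 of 16) it was the last but one, number 498 of 499 and 614 of 615, and both sequences end in the stop codon. In the deiodinase Dio3 (chr12:111517949-111517951, + strand, exon 1 of 1) it was codon 170 of 304. In selenoprotein W, Sepw1 (chr7:16505813-16505815, - strand, exon 2 of 6), it was codon 13 of 88.

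Between 7375942 and 11510521 reads were counted on genes in LD mice, with a median of 8185465. The range was 6559334 to 11331272 reads in Se_LD mice, with a median of 9600570. Values are read counts divided by one size factor per library and are called normalized counts below. Per-mouse values follow the order of the library numbers given above. Markers of CA1, CA3 and dentate gyrus were present in every library, with a summed level of 7476 to 8622 normalized counts in LD and 6672 to 9047 in Se_LD. The 14 such markers tested included Wfs1, Man1a and Prox1. Choroid plexus markers, listed because this tissue borders on hippocampus, varied widely within both groups, from 0.00875% to 0.390% of the library in LD and from 0.00427% to 0.480% in Se_LD. The first principal component of the 10 libraries held 25.3% of the variance, and its leading genes Ttr, Sostdc1, Aqp1, Slc4a5 and Folr1 are markers of that tissue. The groups themselves accounted for 7.56% of the sum of squares. In bulk tissue, fewer cells of a type and less RNA per cell cannot be told apart.

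Across the whole transcriptome, no gene was differentially expressed between Se_LD and LD after adjustment. Of 14296 genes whose mean over the 30 libraries reached 10 normalized counts, 0 (0%) passed an adjusted p of 0.05 (limma, Benjamini-Hochberg over all genes tested), and the lowest adjusted p was 0.99996. The quasi-likelihood test of edgeR and DESeq2, run on recovered reads, also called 0 genes. At an unadjusted p under 0.05, limma counted 355 genes, or 2.48%, edgeR 371 and DESeq2 358. If no gene differed, 5% of genes would be expected under that threshold, so the limma share lay below it. Of the 355, 186 (1.30% of genes tested) were higher in Se_LD and 169 (1.18%) were lower. All 5 Se_LD mice lay above all 5 LD mice in 35 genes (0.245%) and below them in 16 (0.112%). For a gene without a difference, separation in either direction has a probability of 0.00794, and these shares lay below that.

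The precision of the comparison bounds what could have gone unseen. The half-width of the 95% confidence interval had a median of 0.28 on the log2 scale, and it was 0.48 for 5023 genes with a mean of 10 to 100 normalized counts, 0.23 for 7470 genes with 100 to 1000 and 0.20 for 1803 genes above that. For 13502 genes (94.4%) the whole interval lay within a 2-fold change, and for 10866 (76.0%) it lay within a 1.5-fold change. The median difference over all genes was 0.00 and 50.4% of them were higher in Se_LD. Gh, the growth hormone gene, which is named here after its value was seen, had the lowest difference of all, -2.58, with an interval from -6.05 to 0.89. Log2 differences are those of log2(normalized count + 1), which understates the change of genes with few reads. The p-values measure the spread between mice, each of which gave 1 library. In limma that spread was estimated over all 30 libraries. Mice of the other groups, HD among them, thus enter the intervals and p-values of Se_LD against LD.

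**Figure D1:**
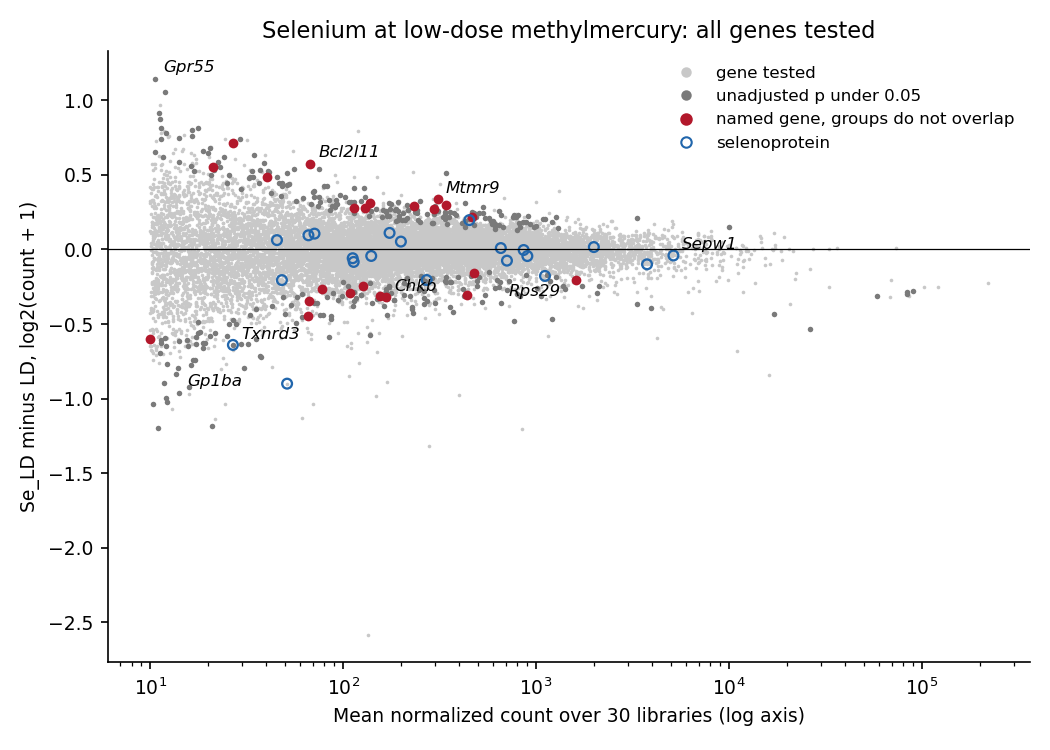
Each point is 1 of the 14296 genes tested, with the mean normalized count over 30 libraries on a log axis and the difference of Se_LD minus LD in log2(count + 1) on the other axis, and with dark points for an unadjusted p under 0.05, red for named genes whose groups do not overlap and blue rings for selenoproteins. The cloud is centred on 0.00 and widest at low counts, 0 genes have an adjusted p under 0.05 (limma), and the lowest point is Gh at -2.58.

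Selenoprotein transcripts stayed close to their LD level. Of 24 listed genes 21 were tested, 8 were higher and 13 lower in Se_LD, and the median log2 difference was -0.04. One of the 21, Txnrd3, had an unadjusted p under 0.05, beside 2.48% of all genes, and in none were the groups separate. The summed level of the family was 16426 to 19163 normalized counts in LD and 16028 to 17734 in Se_LD, or 0.179% to 0.217% and 0.190% to 0.201% of the library. For 19 of the 21 genes the whole interval lay within a 2-fold change. The 2 exceptions were Txnrd3 and Dio3.

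Thioredoxin reductases keep thioredoxin reduced, Txnrd1 in the cytosol, Txnrd2 in mitochondria and Txnrd3 mainly in testis. Txnrd1 was found at 465, 402, 403, 373 and 429 normalized counts in LD mice and at 468, 498, 475, 447 and 482 in Se_LD mice. The groups overlapped, since LD library 2 lay above Se_LD library 23. The log2 difference was 0.20 (95% confidence interval -0.01 to 0.40, limma unadjusted p = 0.0603), while the exact two-sided permutation test gave p = 0.0159, where 0.00794 is the smallest value that 5 mice against 5 allow. Without LD library 2 the limma p of Txnrd1 was 0.0321, and in the other 9 fits with one mouse left out it was at least 0.0535. Txnrd3 was at 37.8, 46.0, 27.2, 23.2 and 24.7 normalized counts in LD mice and at 12.0, 24.4, 29.3, 14.5 and 21.4 in Se_LD mice. LD libraries 2 and 8 were high and Se_LD libraries 5 and 23 were low, and the rest were mixed. Its log2 difference of -0.64 (interval -1.20 to -0.08) had an unadjusted p of 0.0258 in limma, and the exact permutation test gave p = 0.0714. Without LD library 2, LD library 8, Se_LD library 5 or Se_LD library 23, each in turn, the limma p was between 0.0619 and 0.0975. Txnrd2 differed by 0.11 (interval -0.16 to 0.37).

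Glutathione peroxidases reduce hydrogen peroxide (Gpx1, Gpx3) and lipid peroxides in membranes (Gpx4). Gpx1, whose transcript is known to be among the most sensitive to selenium supply, was at 198, 109.5, 133, 83.7 and 218 normalized counts in LD mice and at 115, 153, 179, 123 and 117 in Se_LD mice. The Se_LD values lay inside the LD range, and the log2 difference was -0.04 (interval -0.49 to 0.40). Gpx4 was at 1271, 889, 1202, 1003 and 1467 in LD mice and at 899.7, 1080.4, 1097, 962 and 1051 in Se_LD mice. LD library 26 was the highest, and the difference of -0.18 had an interval from -0.44 to 0.09. It was -0.09 without LD library 26 and -0.27 without LD library 8, where the limma unadjusted p was 0.0457. Gpx3 differed by 0.06 (interval -0.49 to 0.62).

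Deiodinases activate (Dio2) or inactivate (Dio3) thyroid hormone. Dio2 differed by -0.08 (interval -0.38 to 0.23). Dio3 was at 31.8, 18.7, 11.5, 51.5 and 81.1 normalized counts in LD mice and at 13.9, 4.51, 5.85, 54.0 and 48.8 in Se_LD mice. Values within each group spread over more than the distance between the groups, so the difference of -0.90 had an interval from -2.17 to 0.37, and a change of 2-fold in this gene was not detectable. With one mouse left out the difference ran from -0.49 (without Se_LD library 11) to -1.32 (without Se_LD library 23), where the limma unadjusted p was 0.0452. Of 10 genes of thyroid hormone transport and response, a list that includes Dio3, 3 were higher and 7 lower. Their median was -0.06, with 0 under an unadjusted threshold of 0.05 in limma.

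Selenoprotein P (Sepp1), which carries selenium between and within tissues, was at 1693, 2274, 1945, 1683 and 1814 normalized counts in LD mice and at 2164, 1870.1, 1753, 1938 and 1756 in Se_LD mice. The values interleaved, with a difference of 0.02 (interval -0.20 to 0.23). Selenoprotein W (Sepw1), a small and abundant protein of brain and muscle, was at 5499, 4198, 5183, 7285 and 7196 in LD mice and at 6063, 5828, 5709, 5351 and 5045 in Se_LD mice. LD libraries 20 and 26 were the highest and LD library 8 the lowest of the 10. The difference in Sepw1 was -0.04 (interval -0.32 to 0.24).

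Selenoproteins of the endoplasmic reticulum followed. Selk, whose product takes part in degradation of misfolded proteins, differed by 0.00 (interval -0.19 to 0.18), H47 (selenoprotein S) by 0.05, and Sep15, which binds a glycoprotein folding sensor, by -0.04 (interval -0.21 to 0.12). Selenoprotein T, listed as 2810407C02Rik, differed by -0.10 (interval -0.27 to 0.07) and Selm by -0.21 (interval -0.61 to 0.20). Among the others, Sephs2, which makes the selenium donor and is itself a selenoprotein, differed by -0.08, Sepx1 (methionine sulfoxide reductase B1) by -0.06, Sepn1 by 0.11, Ept1 (selenoprotein I) by 0.01, 1300018J18Rik (selenoprotein O) by 0.09 and 2700094K13Rik (selenoprotein H) by -0.21 (interval -0.73 to 0.32). None of these had an unadjusted p under 0.05 in limma.

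**Figure D2:**
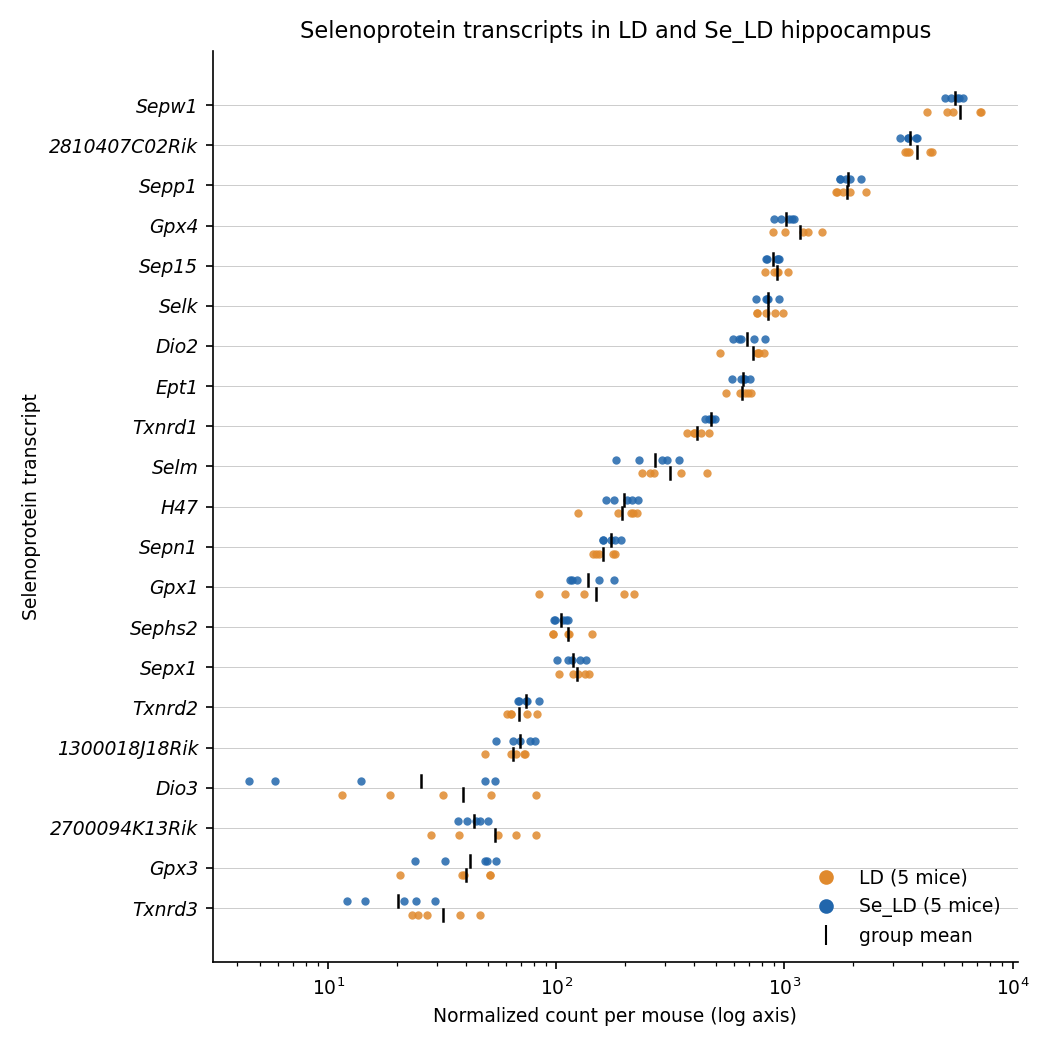
Normalized counts (log axis) of the 21 selenoprotein transcripts tested in the 5 LD (orange) and 5 Se_LD (blue) mice, with 1 point per mouse and a tick for the group mean. The groups overlap in every gene drawn, Sepw1 is the most abundant at up to 7285, and Dio3 has the widest spread, from 4.51 to 81.1.

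**Figure D3:**
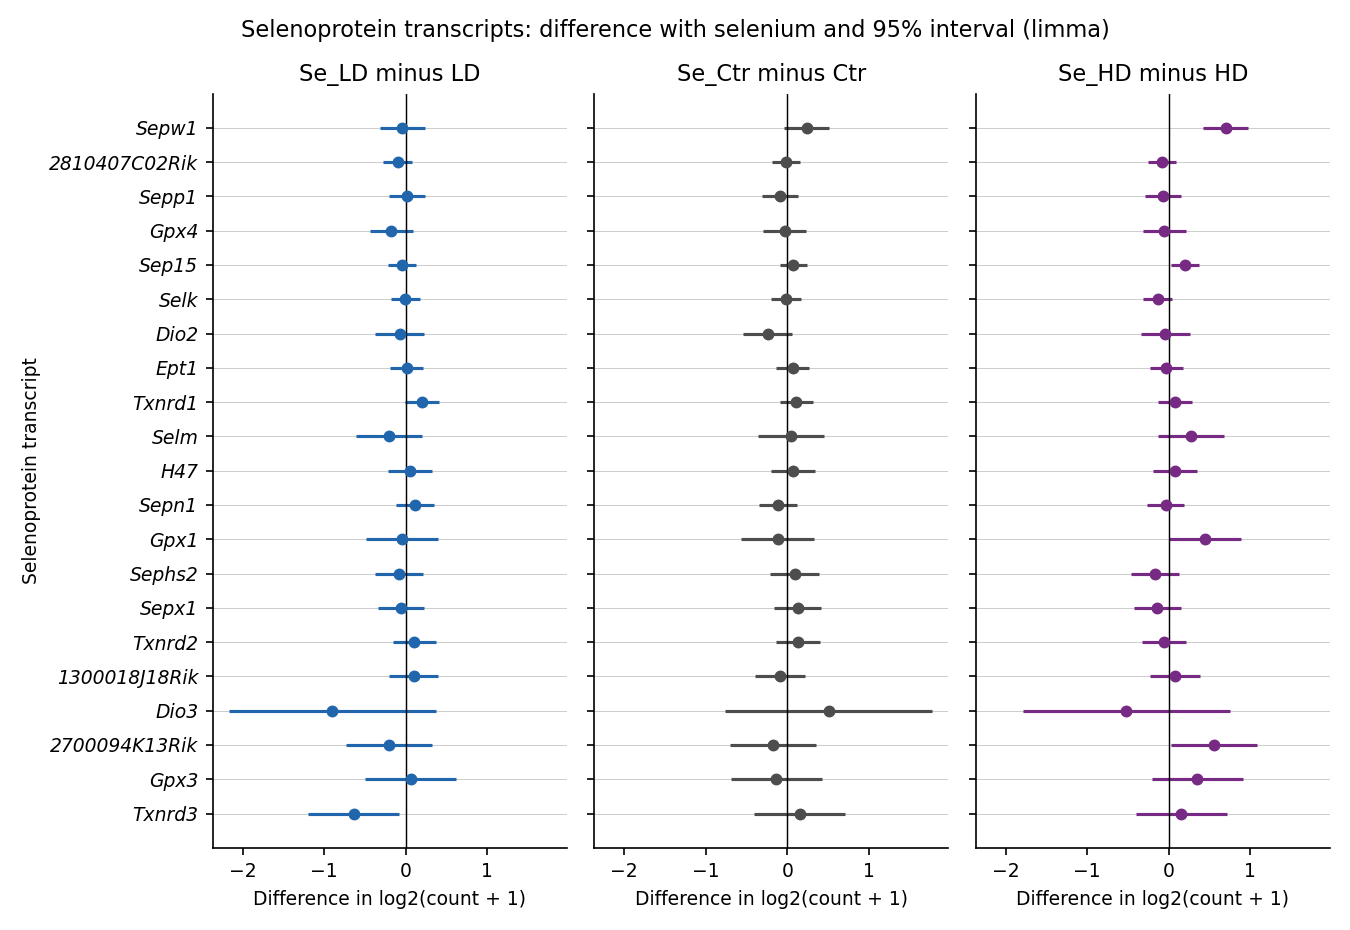
Difference with selenium in log2(count + 1) for the 21 selenoprotein transcripts at the low dose, without MeHg and at the high dose, with 95% confidence intervals from limma as bars. At the low dose the interval of Txnrd3 (-1.20 to -0.08) lies below 0 and those of the other 20 cross it, and at the high dose Sepw1 stands out at 0.70.

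Genes that make, place and take up selenium gave no call. Of 11 genes of selenocysteine synthesis and insertion, 5 were higher and 6 lower, with a median of -0.01 and 0 with p under 0.05. The lowest p of the list was 0.114, for Secisbp2, which binds the hairpin in selenoprotein messenger RNA and differed by 0.24. Eefsec, the selenocysteine elongation factor, differed by 0.25 (unadjusted p = 0.12) and Pstk, the kinase that prepares the transfer RNA, by -0.28 (unadjusted p = 0.123), all in limma. Of 15 listed genes of selenium uptake and selenomethionine metabolism 11 were tested, 4 higher and 7 lower, with a median of -0.03 and 0 with p under 0.05. Lrp8, the receptor for selenoprotein P in brain, was at 795, 865, 753, 820.3 and 682 normalized counts in LD mice and at 816, 768, 716, 772 and 726 in Se_LD mice, a difference of -0.04 (interval -0.26 to 0.18). Scly, which releases selenium from selenocysteine, differed by -0.08.

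Antioxidant and stress genes gave no call either. Of 24 targets of NRF2, the transcription factor that answers electrophiles, 13 were higher and 11 lower, with a median of 0.03 and 0 with an unadjusted p under 0.05. The quinone reductase Nqo1 differed by 0.13, heme oxygenase Hmox1 by -0.06, the glutathione-synthesis enzyme Gclc by 0.04 (interval -0.11 to 0.19) and Srxn1, which repairs oxidized peroxiredoxins, by -0.14 (unadjusted p = 0.141). Among 10 superoxide dismutases, catalase and peroxiredoxins, 3 were higher and 7 lower (median -0.04, 0 with p under 0.05). Of 5 metallothioneins and genes of the zinc response, 2 were higher and 3 lower, with a median of -0.13 (0.02 without LD library 20) and 0 with p under 0.05. Mt1, which binds mercury as well as zinc, was at 1217, 847, 959, 823 and 1484 normalized counts in LD mice and at 797, 1090.3, 978, 783 and 749.9 in Se_LD mice, a difference of -0.25 (interval -0.60 to 0.09).

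Heat shock genes leaned to one side without any of them passing. Of 14, 1 was higher (Hspa8, 0.16) and 13 lower, with a median of -0.10, beside 50.4% higher and a median of 0.00 over all genes. The lowest p was that of Dnaja1, a co-chaperone, at -0.16 (limma unadjusted p = 0.0826), and the median kept its sign over all alternatives that left out a mouse, from -0.15 to -0.04. Of 19 genes of the unfolded protein and integrated stress response, 11 were higher and 8 lower (median 0.04, 0 with p under 0.05). Calr, a chaperone of the endoplasmic reticulum, had the lowest p of that list at 0.0515 (difference -0.39), and LD library 20 stood at 9100.4 normalized counts where the other LD mice were at 3768 to 4583 and Se_LD mice at 3519 to 4282.

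The genes with the lowest p in the comparison were mostly of low expression. Gpr55, a receptor for lysophospholipids, was at 5.93, 7.47, 4.18, 2.58 and 9.89 normalized counts in LD mice and at 9.26, 17.1, 10.9, 21.1 and 11.8 in Se_LD mice. One Se_LD mouse (library 5) lay below one LD mouse (library 26). The log2 difference of 1.15 (interval 0.51 to 1.78) had the lowest unadjusted p of all genes in limma, 0.000937, with an adjusted p of 0.99996. It lies at chr1:87836112-87857630 in NCBIM37. Bcl2l11, which encodes the pro-apoptotic protein BIM (chr2:127951774-127988283), was at 60.0, 62.2, 55.4, 55.4 and 43.5 normalized counts in LD mice and at 74.1, 89.4, 81.1, 85.7 and 82.0 in Se_LD mice. Every Se_LD mouse lay above every LD mouse, and group means were 55.3 ± 7.23 and 82.4 ± 5.71 (SD, n = 5 each). The log2 difference was 0.58 (interval 0.25 to 0.90), with an unadjusted p of 0.000944 in limma. In Ctr mice Bcl2l11 ran from 49.3 over a median of 68.8 to 78.9, a range that overlapped both groups. The difference kept an unadjusted p under 0.05 in all 24 alternative settings, from 0.49 without LD library 26 to 0.62 without LD library 8.

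Of the other 8 genes with the lowest p, Mtmr9 (a member of the myotubularin phosphatase family, chr14:64142453-64162790) and D16Ertd472e also separated the groups. Mtmr9 was at 278, 270.0, 327, 281 and 274 normalized counts in LD mice and at 328, 345, 346, 386 and 403 in Se_LD mice, a difference of 0.34 (interval 0.12 to 0.55, unadjusted p = 0.00343). Its groups nearly touched, at LD library 14 and Se_LD library 5. D16Ertd472e was at 20.7, 24.9, 20.9, 18.0 and 12.9 in LD mice and at 27.8, 25.3, 36.8, 36.9 and 34.7 in Se_LD mice, a difference of 0.71 (unadjusted p = 0.00351). The remaining 6 were lower in Se_LD with overlapping groups. They were Gp1ba (a platelet glycoprotein, -0.96), Plekha4 (a phosphoinositide-binding protein, -0.64), Cd160 (a receptor of natural killer cells, -0.74), the long noncoding RNA D330023K18Rik (-0.71), 1700021F05Rik (-0.34) and Rps29, a protein of the small ribosomal subunit (-0.36), with limma unadjusted p from 0.00256 to 0.00409. Rps29 was at 799, 714, 672, 725 and 964 normalized counts in LD mice and at 559, 679, 565, 637 and 569 in Se_LD mice, where library 11 alone reached into the LD range.

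The genes that separated all 5 mice of one group from all 5 of the other were scattered over functions. With an unadjusted p under 0.05 in limma they numbered 20 higher and 11 lower in Se_LD, and the 12 highest differences and 10 of the 11 lower genes are named here. Besides Bcl2l11, D16Ertd472e and Mtmr9, the higher ones were Pou3f4 (a neural transcription factor, 0.55), Zfp14 (0.49), Upp2 (a uridine phosphorylase, 0.31), Pik3c3 (the lipid kinase of autophagy, 0.30), 0610011L14Rik (0.29), Lama2 (a laminin chain of basement membranes, 0.28), Mettl13 (0.28), Tbcd (a tubulin-folding cofactor, 0.27) and Specc1l (a cytoskeletal linker, 0.22). The lower ones were Ung (uracil-DNA glycosylase, -0.60), Pcdhb5 (a protocadherin, -0.35), Chkb (choline kinase beta, -0.32), Zbtb8os (-0.31), Ndufc2 (a subunit of respiratory complex I, -0.31), Cluap1 (a protein of ciliary transport, -0.29), Tmem185b (annotated as a pseudogene, -0.27), Tmem60 (-0.25), Dnajc7 (a co-chaperone, -0.20) and Nsa2 (a ribosome-assembly protein, -0.16). With each of the 10 mice left out in turn, the unadjusted p stayed under 0.05 in all 10 fits for Bcl2l11, D16Ertd472e, Mtmr9, Pik3c3, 0610011L14Rik, Mettl13, Tbcd, Specc1l, Pcdhb5, Chkb and Ndufc2. It did so in 2 of 10 for Tmem60 and Nsa2, 3 for Pou3f4, 4 for Lama2 and Ung, and 7 to 9 for the others. These genes were picked for separation and a low p in the same mice, so the fits with one mouse left out are not an independent check. The adjusted p of limma was 0.99996 in each of these genes.

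Chkb and Ndufc2 illustrate the size of such differences against the spread between mice. Chkb was at 196, 178, 191, 191 and 197 normalized counts in LD mice and at 129, 171, 164, 141 and 160.3 in Se_LD mice. LD mice were tight in Chkb and Se_LD mice more spread. Ndufc2 was at 455, 484, 434, 428 and 597 in LD mice and at 346, 398, 412, 417 and 355 in Se_LD mice. The groups came closest at LD library 20 and Se_LD library 23.

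**Figure D4:**
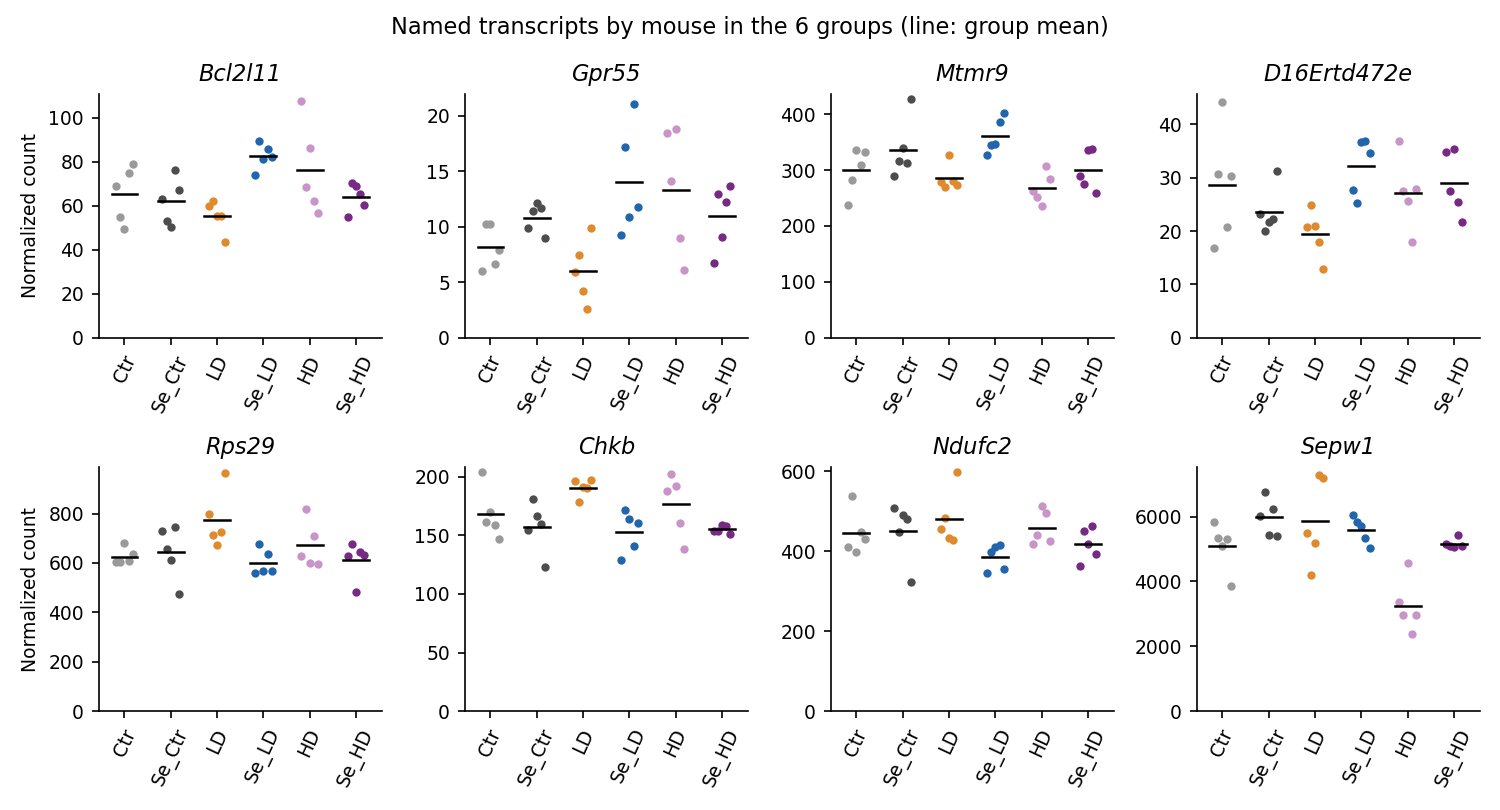
Normalized counts of Bcl2l11, Gpr55, Mtmr9, D16Ertd472e, Rps29, Chkb, Ndufc2 and Sepw1 in the 30 mice by group, with 1 point per mouse and the mean as a line on axes that start at 0. LD and Se_LD do not overlap in Bcl2l11, Mtmr9, D16Ertd472e, Chkb and Ndufc2, and for Sepw1 the HD mice stand lowest.

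Transcripts of the mitochondrial genome, which encode core subunits of the respiratory chain, were all lower in Se_LD. All 12 tested had a negative difference (median -0.29), and 6 had an unadjusted p under 0.05, beside 1.18% of all genes in that direction. These were mt-Nd1 (-0.30), mt-Nd2 (-0.31), mt-Nd3 (-0.43) and mt-Nd6 (-0.53) of complex I, mt-Cytb of complex III (-0.28) and mt-Co2 of complex IV (-0.29), with limma unadjusted p from 0.0198 to 0.047. The sum of mitochondrial genome transcripts came to 9.00%, 13.3%, 9.63%, 11.2% and 10.8% of the LD libraries and to 9.31%, 9.36%, 9.11%, 9.65% and 8.31% of the Se_LD libraries. LD libraries 8, 20 and 26 were high, while LD libraries 2 and 14 lay within the Se_LD range, so the groups overlapped. As an example, mt-Nd2 was at 53016, 83814, 61077, 81324 and 61376 normalized counts in LD mice and at 56450.1, 54243, 53803, 54117 and 51349 in Se_LD mice.

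The count of mitochondrial transcripts with an unadjusted p under 0.05 depended on the mice and the fit, while the direction held with any one mouse left out (medians from -0.37 to -0.21). Without LD library 8 or without LD library 20, all 12 stayed lower (median -0.21 and -0.24) but 0 had an unadjusted p under 0.05 in limma. The 6 became 2 without Se_LD library 29 or with the LD and Se_LD libraries fitted alone, 3 with a filter on a sum of at least 10 or none, and 9 in DESeq2 or without LD library 2. Under quantile normalization 9 of 12 were lower, 2 of them with an unadjusted p under 0.05, and the median was -0.04. That method gives every library the same set of values, so it can remove a shared shift of the most abundant transcripts. These 12 transcripts come from 1 genome and are processed from shared precursors, so they are not separate lines of evidence. Of 79 nuclear genes for subunits of the same complexes, 60 were lower and 19 higher (median -0.05), beside 50.4% higher among all genes, and 5 had an unadjusted p under 0.05, all lower, beside 1.18% of all genes. Without LD library 26, 33 of the 79 were lower and 46 higher, with 2 and 1 under that p, and without LD library 8 the 5 became 10. Of 72 genes for cytosolic ribosomal proteins 43 were lower (median -0.04), and 31 of the 72 were lower without LD library 26. An unadjusted p under 0.05 was found for 3, namely Rps29, Rpl28 (-0.47) and Rps2 (-0.56), beside the same 1.18%. Among short genes, which most members of these lists are, the share with a lower value at that p was higher. It was 27 of 667 genes with at most 1000 exonic bases and 57 of 2038 with more and up to 2000.

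The length of transcripts moved with these differences. Of 667 genes with at most 1000 exonic bases, 66.7% were lower in Se_LD (median -0.08), of 2038 genes with more than that and up to 2000 bases 63.7% (median -0.05), of 5021 genes with more than that and up to 4000 bases 53.1% (median -0.01), and of 6551 longer genes 40.8% (median 0.02). An unadjusted p under 0.05 with a lower value in Se_LD was found for 27 of the 667 and 57 of the 2038, beside 1.18% of all genes. LD library 26 had the highest level of the 10 in each of the 3 shorter classes. All 12 transcripts of the mitochondrial genome, 55 of the 79 nuclear genes of the respiratory chain and 47 of the 72 ribosomal genes had at most 2000 bases. The part of length in the results on these lists, Rps29 and Ndufc2 was not tested.

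Genes of the circadian clock leaned upwards. Of 18, 16 were higher and 2 (Cry1 and Arntl) lower in Se_LD, with a median of 0.17 and 1 with an unadjusted p under 0.05, beside 1.30% of all genes in that direction. That gene was Bhlhe40, a repressor of clock output, at 477, 497, 456, 422 and 412 normalized counts in LD mice and at 576, 466, 530.3, 619 and 502 in Se_LD mice. Its difference was 0.25 (interval 0.04 to 0.45, limma unadjusted p = 0.0192), and Se_LD library 11 lay within the LD range. The period gene Per2 differed by 0.17 and the output factor Dbp by 0.28, both with intervals that cross 0. Without LD library 26 the median of the list was 0.07, and without it or Se_LD library 23 no clock gene had an unadjusted p under 0.05. In Se_Ctr against Ctr the list had a median of -0.17 with 6 of 18 genes under an unadjusted p of 0.05 (all genes 3.17%), and in Se_HD against HD a median of 0.12 with 5 of 18 (all genes 9.61%). All 18 clock genes had more than 2000 exonic bases. The hour of dissection is not among the values used here, and its part was not tested. Of 20 immediate early genes of neurons, 7 were higher and 13 lower (median -0.02, 0 with p under 0.05). That median ran from -0.15 without LD library 26 to 0.14 without Se_LD library 29.

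Markers of glia and neurons gave few genes with an unadjusted p under 0.05. Of 18 genes of homeostatic microglia 11 were higher and 7 lower, with a median of 0.04 and 0 with an unadjusted p under 0.05. Csf1r, the receptor for their survival factor, was at 655, 599, 677, 708 and 625 normalized counts in LD mice and at 772, 714, 825, 718 and 754 in Se_LD mice. The groups did not overlap, but the interval of its difference of 0.21 was -0.06 to 0.49, with the spread taken over all 30 libraries. The median was -0.04 for 11 genes of activated microglia and 0.01 for 16 of reactive astrocytes. It was -0.18 for 11 of the interferon response and 0.00 for 16 myelin genes, with no member past the unadjusted threshold of 0.05 in any. With one mouse left out, the myelin median ran from -0.11 (without Se_LD library 11) to 0.13 (without Se_LD library 5). That of activated microglia ran from -0.16 (without LD library 8) to -0.02 (without Se_LD library 23). Some members met the filter on mean count only through HD mice. Clec7a averaged 3.30 in LD and 2.15 in Se_LD and reached 92.2 in HD library 21. Ifit1 and Ifi44 averaged under 10 in both and reached 121 and 223 in that library. Whole intervals lay within a 2-fold change for 6 of the 11 genes of activated microglia and 12 of the 16 of reactive astrocytes. They did so for 3 of the 11 of the interferon response and for all 16 myelin genes. These intervals include the spread of HD mice. Oasl2, of the interferon list, was at 21.3 ± 4.60 in LD and 21.3 ± 3.10 in Se_LD (mean and SD), with 494 in HD library 21. Its interval was -1.02 to 1.05. Among 10 genes of oligodendrocyte precursors 3 were higher and 7 lower (median -0.06). Gpr17, a receptor of cells about to myelinate, was the one past the unadjusted threshold of 0.05. Its difference was 0.28 (limma unadjusted p = 0.0176), beside 1.30% of all genes past that threshold in that direction. Without LD library 8 it was 0.17 (unadjusted p = 0.109), and 6 of the 10 fits with one mouse left out stayed past the threshold. Of 17 markers of GABAergic interneurons 8 were higher and 9 lower (median -0.03), of 22 glutamate receptor genes 13 and 9 (median 0.01), of 14 markers of CA1, CA3 and dentate gyrus 5 and 9 (median -0.07), and of 12 genes of neurogenesis and proliferation 5 and 7 (median -0.10, but 0.11 without Se_LD library 5). None of the genes of these 4 lists had an unadjusted p under 0.05.

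Markers of neighbouring tissue differed by more, in both directions and without a call. Of 18 choroid plexus markers 17 were lower in Se_LD, with a median of -0.56 and 0 with an unadjusted p under 0.05. The direction turned in the count models, with 17 of 18 higher in edgeR (median 0.20) and 15 of 18 higher in DESeq2 (median 0.18). In TMM log2 values of the same recovered reads, 17 of 18 were lower (median -0.55). Their summed share was 0.390%, 0.110%, 0.344%, 0.147% and 0.00875% of the LD libraries and 0.00427%, 0.296%, 0.340%, 0.0150% and 0.480% of the Se_LD libraries. Both groups thus held mice with hardly any and mice with much of these transcripts, and the median went from -1.20 without LD library 26 to 0.41 without Se_LD library 5. All 12 leptomeningeal markers were lower (median -0.35) and 9 of 11 markers of thalamus and habenula were higher (median 0.31), again with none past that threshold. Without Se_LD library 5, 9 of the 12 leptomeningeal markers were lower (median -0.17), and with any one mouse left out the medians ran from -0.54 to -0.17 and, for thalamus and habenula, from 0.10 (without Se_LD library 29) to 0.55 (without LD library 8). In the remaining lists, 10 markers of striatum, 10 of neocortex, 14 of brain endothelium, 9 of pericytes and smooth muscle, 9 of ependyma, 5 of blood and 14 of homeostatic astrocytes, medians lay between -0.10 (ependyma) and 0.05 (blood) and 0 genes had an unadjusted p under 0.05. The ependymal median ran from -0.39 without Se_LD library 11 to 0.36 without Se_LD library 5. With the choroid plexus sum as a covariate, 0 genes passed an adjusted p of 0.05 in limma, and the difference was 0.58 for Bcl2l11 and -0.58 for Txnrd3.

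**Figure D5:**
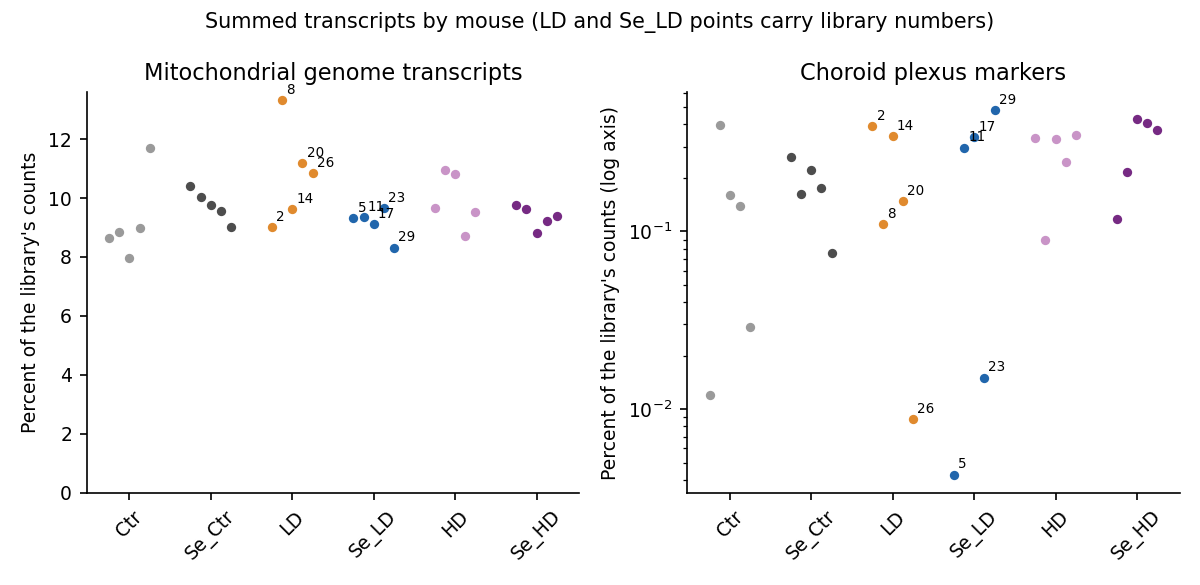
Share of each library taken by mitochondrial genome transcripts (linear axis) and by choroid plexus markers (log axis) in the 6 groups, with 1 point per mouse and library numbers beside LD and Se_LD. LD spans 9.00% to 13.3% and Se_LD 8.31% to 9.65% in the first, and both groups span more than an order of magnitude in the second.

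The selenium differences at the other MeHg levels used no library of this one, but the p-values of all 3 comparisons share 1 estimate of the spread. Counts of genes past the threshold in more than 1 comparison are therefore not independent. Without MeHg, Se_Ctr against Ctr gave 0 genes (0%) at an adjusted p under 0.05 and 453 (3.17%) at an unadjusted p under 0.05 in limma. At the high dose, Se_HD against HD gave 61 (0.427%) and 1374 (9.61%). Of the 355 genes with an unadjusted p under 0.05 at the low dose, 156 (43.9%) had the same sign without MeHg, beside 47.7% of all genes, and 226 (63.7%) had it at the high dose, beside 56.2% of all genes. Same sign and an unadjusted p under 0.05 were found for 6 (1.69%, all genes 1.37%) and 29 (8.17%, all genes 5.96%) of the 355. Plekha4 was one of the latter, with a difference of -0.55 at the high dose (unadjusted p = 0.00951).

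Of the 61 genes called at the high dose, 59 fell with selenium, among them the microglial genes Mpeg1 and Tyrobp and the astrocyte filament Gfap, and Gad1 and Sepw1 rose. In Se_LD against LD, 32 of the 61 had the same sign, beside 56.2% of all genes. Of these 32, 0 had an unadjusted p under 0.05, and the median of the 59 was -0.01. Cd37 (0.52) and Capn3 (0.24), named here after their values were seen, were the 2 with an unadjusted p under 0.05, beside 2.48% of all genes. Both were higher with selenium at the low dose and fell with it at the high dose. Mpeg1 differed by -1.44 at the high dose and by -0.01 (interval -0.42 to 0.41) at the low dose. Gfap differed by -1.84 and by -0.07 (interval -0.67 to 0.53). The homeostatic microglial list had a median of -0.82 at the high dose with 16 of 18 genes past the unadjusted threshold of 0.05, beside 0.04 and 0 of 18 at the low dose.

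Sepw1 was the selenoprotein called at the high dose. It rose by 0.70 with selenium at the high dose (limma unadjusted p = 1.44e-05, within the 61 genes called), where HD mice were at 2386 to 4564 normalized counts and Se_HD mice at 5054 to 5423. Without MeHg the difference was 0.24 (unadjusted p = 0.0867), and at the low dose it was -0.04. LD mice were at 4198 to 7285, and all but library 8 lay above every HD mouse. The difference between the low-dose and high-dose effects was -0.74 (interval -1.13 to -0.35, limma unadjusted p = 0.000558, adjusted p = 0.40). Gpx1 differed by 0.45 at the high dose (unadjusted p = 0.047), Sep15 by 0.20 (unadjusted p = 0.0222) and 2700094K13Rik by 0.55 (unadjusted p = 0.0407), beside -0.04, -0.04 and -0.21 at the low dose. Over all genes the difference between the low-dose and high-dose effects gave 0 (0%) at an adjusted p under 0.05 and 619 (4.33%) at an unadjusted p under 0.05.

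The test of whether the selenium effect at the low dose differed from that without MeHg called no gene. It gave 0 (0%) at an adjusted p under 0.05 and 459 (3.21%) at an unadjusted p under 0.05, with a lowest adjusted p of 0.999 in limma. The 5 genes with the lowest p were Fggy (a carbohydrate kinase), Bbs9 (a subunit of the ciliary BBSome), Gpr116 (an adhesion receptor), Vrk2 (a kinase) and E130311K13Rik. Fggy had a difference of effects of 1.52 (unadjusted p = 0.000781) that came mostly from the mice without MeHg, at -1.10, beside 0.42 at the low dose. Bbs9 was higher with selenium at the low dose (0.35) and lower without MeHg (-0.31), a difference of 0.66 (unadjusted p = 0.00109). At the low dose it was at 69.6, 56.0, 74.3, 61.8 and 52.4 normalized counts in LD mice and at 76.8, 71.3, 87.0, 76.4 and 88.7 in Se_LD mice. Vrk2 had 0.56 and -0.61, Gpr116 0.07 and -0.34, and E130311K13Rik -0.30 and 0.29.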

How the data were processed

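The authors prepared 1 strand-specific mRNA library from each of 30 hippocampus RNA samples and sequenced them as single-end reads. Per the labels, reads were trimmed with Trim Galore 0.4.2, checked with FastQC, mapped with HISAT2 to NCBIM37, counted with featureCounts and normalized with DESeq2. The deposited values are signal values, namely counts divided by one size factor per library. Every value gave a whole number of reads within 0.01, and these recovered reads were used for edgeR and DESeq2. Symbols came from the annotation of the same build for 21326 of 21412 genes.

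Log2(normalized count + 1) was fitted with limma 3.58.1 (R 4.3.3) with a variance trend and 1 coefficient per group over 30 libraries, for genes whose mean reached 10 normalized counts. Tests were two-sided, with Benjamini-Hochberg adjustment over the 14296 genes tested. Intervals cover 95%. Single genes were also compared by exact permutation. Scripts were tested on simulated data. No 2 of the 10 LD and Se_LD libraries agreed within sampling noise.

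Named genes were the 10 lowest p-values, up to 12 genes in each direction with separate groups and an unadjusted p under 0.05, list members with an unadjusted p under 0.05, all selenoproteins and the 5 lowest p-values of the difference from the selenium effect without MeHg. From the lists of oxidative phosphorylation and cytosolic ribosomal genes, which were added after seeing the data, only some were named. One gene that the rule names is not reported here, although counts include it. Members and lists were chosen with earlier results of these data known. The contrast with the high dose and the choroid plexus covariate were added after seeing the data. Alternatives were pseudocounts of 0.5 and 10, other filters, TMM (edgeR 4.0.16) and quantile normalization, edgeR, DESeq2 1.42.0, limma without trend, subsets of libraries, sets of 6 consecutive library numbers as a covariate, and each mouse left out.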

Additional observations from a re-analysis of the deposited data

Results flagged for a closer look

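Of 198 groups of 5 mice checked for a mouse far from the others, over named genes and summed lists, 12 held one, and chance gives about 1 in 20. Among genes, Mtmr9 was highest in LD library 14 (327 normalized counts, others 270.0 to 281), 1700021F05Rik was highest in Se_LD library 5 (154, others 129.6 to 134), and Tbcd was lowest in LD library 8 (204, others 271 to 296) and highest in Se_LD library 29 (341, others 310.1 to 314). Specc1l was highest in Se_LD library 11 (552, others 480.1 to 501), and Pcdhb5 in LD library 20 (86.3, others 69.7 to 73.3). Gpr116 was lowest in Se_LD library 17 (288, others 340.3 to 359), and Dio2 in LD library 26 (524, others 757 to 816). Among summed lists, GABAergic interneuron markers were highest in LD library 26 (13537, others 12103 to 12258), and homeostatic astrocyte markers in Se_LD library 5 (96577, others 77884 to 83302). Mitochondrial genome transcripts were lowest in Se_LD library 29 (696042, others 794905 to 834494), and neurogenesis genes in LD library 14 (846, others 1054 to 1132). The mice were spread over 8 libraries.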

How the results depend on the processing

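The count of 0 genes at an adjusted p under 0.05 in Se_LD against LD, and for the difference from the selenium effect without MeHg, was the same in every setting run. The 355 genes at an unadjusted p under 0.05 became 611 with a filter on a sum of at least 10 and 613 with no filter, which tested more genes, and 224 (without Se_LD library 29) to 574 (without LD library 14) with one mouse left out. The 459 genes of the difference between effects became 801 and 803 with these filters. With the choroid plexus covariate, Se_Ctr against Ctr gave 2 adjusted calls in place of 0. The 61 calls of Se_HD against HD became 136 in edgeR and 217 in DESeq2, and the cause was not tested. The difference of mt-Co2 reversed to 0.0046 under quantile normalization, which gives every library the same set of values. For the 42 named genes with an unadjusted p under 0.05, 869 of 997 alternative values kept direction and side of the threshold and 127 kept direction only. For the 22 others, 520 of 525 stayed above the threshold, and 26 had the opposite sign. Among the count classes, genes with 10 to 100 normalized counts, with a median interval half-width of 0.48, are the least certain. The choroid plexus markers had a median half-width of 1.86. The labels give no replicate numbers that the groups share, so mice were not paired by them. With each set of 6 consecutive library numbers, which holds 1 library of every group, as a block, 0 genes passed the adjusted threshold and 338 the unadjusted one.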
